A study of Mus musculus with 9 samples.

Results

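The 48 genes described here are genes in which mutation in the mouse is known to disturb closure of the neural tube or a pathway that drives it, out of 21887 protein-coding genes on the main chromosomes of the RefSeq annotation. They were listed by name and not by a threshold on the signal, and all 48 were found in the annotation. For each gene, deposited intervals of KDM6A signal were collected that overlapped the gene's span or the 5 kb on either side of it by at least 1 bp. KDM6A, also called UTX, is a demethylase that removes methyl groups from lysine 27 of histone H3, a mark that Polycomb complexes place at silent developmental genes.

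The neural tube forms when the neural plate bends, its folds rise and their edges fuse along the midline. Planar cell polarity proteins narrow and lengthen the plate, actin regulators constrict the apical side of its cells, Hedgehog signalling read through the primary cilium patterns its floor, and transcription factors of the surface ectoderm and neural fold steer fusion. Failure of closure gives spina bifida or exencephaly, and the supply of folate affects the risk. The cells studied here are embryonic stem cells, which precede the neural plate.

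Chromatin immunoprecipitation with sequencing (ChIP-seq), which pulls down DNA with an antibody to a protein bound to it, was done on Sv129 mouse embryonic stem cells. Control libraries 1 and 2 came from cells whose genotype is labelled WT, and MTX libraries 1 and 2 from cells labelled folate deficiency, to which 0.12 µM MTX was added for 24 h. The same KDM6A antibody was used for all 4. A single library with IgG, a nonspecific antibody, carries the number of MTX library 1 and came from cells given 0.12 µM MTX for 24 h. There was no IgG library of control cells, so IgG beside the control libraries is from treated cells. The 4 inputs are not analysed here. Every sample also carries the treatment label neurodevelopment, control samples included, and no label says whether the libraries of a group were separate cultures.

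Each library had its own list of intervals, from 21228 in control library 2 to 44838 in control library 1, with 22843 in IgG. Intervals held few reads: the median per library ran from 79 to 130 immunoprecipitated reads, and the median deposited fold over background from 1.39 to 1.62. Between 18.4% and 25.6% of the KDM6A intervals overlapped an IgG interval. Control library 1 stood apart from the others by its longer list and lower reads per interval, so counts of genes are given for each library. The reads behind the lists outside the intervals are not known.

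Of the 48 neural tube genes, 36 had an interval in at least 1 KDM6A library and 12 had none (25%, beside 38.4% of all genes and 29.6% of other genes of like length). In control library 1, 32 genes had one (66.7%, exact 95% binomial interval 51.6 to 79.6), beside 47.1% of all protein-coding genes. In control library 2 there were 13 (27.1%, 15.3 to 41.8), beside 26.1% of all genes. In MTX library 1 there were 24 (50%, 35.2 to 64.8), beside 33.5%. In MTX library 2 there were 17 (35.4%, 22.2 to 50.5), beside 30.8%. In the IgG library there were 25 (52.1%, 37.2 to 66.7), beside 27.5%. The control libraries differed from each other by more than the MTX libraries did, and the MTX counts of 24 and 17 lay between the control counts of 32 and 13. No test of these counts was made, since the smallest p that exact permutation of 2 libraries against 2 allows is 0.33.

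The neural tube genes are long, with a median span of 42.9 kb against 17.2 kb over all protein-coding genes, and a longer gene has more room for an interval. Other protein-coding genes of like length, where neither of the genes compared is shorter than 0.8 times the other, held an interval in 58.4% (control library 1), 35.3% (control library 2), 43.2% (MTX library 1) and 41.2% (MTX library 2) of cases. Each of these 4 shares lies inside the exact interval of the neural tube genes in that library. The share of the neural tube genes was above that of genes of like length in control library 1 and MTX library 1 and below it in control library 2 and MTX library 2. In IgG the share of genes of like length was 36.2%, just under the lower bound of 37.2% for the neural tube genes. That gap closed under some settings and held under others. With an adjusted p under 0.05 and a fold above 1 the neural tube genes held an interval in 37.5% (24.0 to 52.6) against 31.2%. With lists of equal length it was 43.8% (29.5 to 58.8) against 33.9%. With no flank the gap held, at 52.1% (37.2 to 66.7) against 33.2%, and with interval midpoints in the window at 52.1% (37.2 to 66.7) against 35.1%. The share of genes of like length was itself 37.7% by length classes and 37.9% on autosomes, inside the interval.

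**Figure D1:**
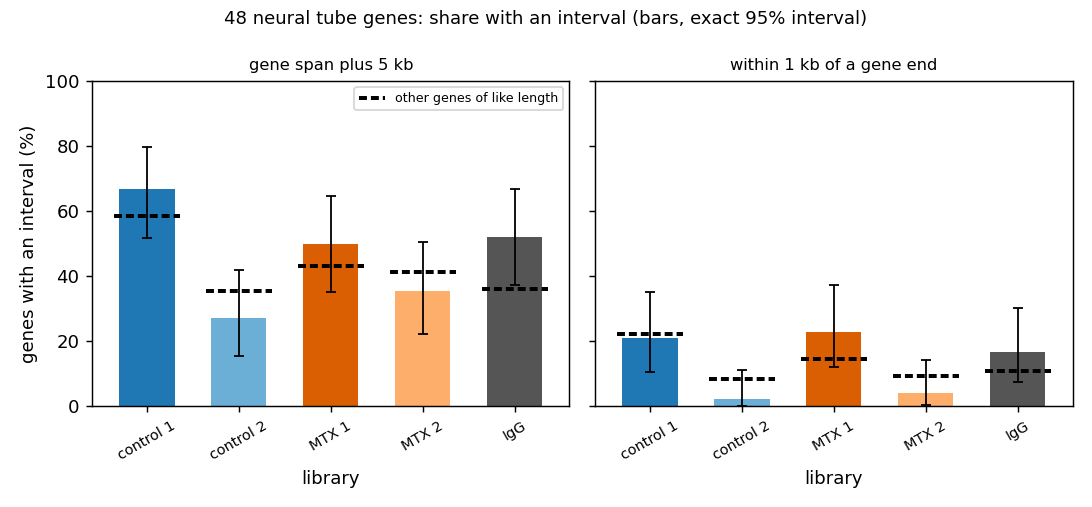
Share of the 48 neural tube genes (%) with an interval in the gene span plus 5 kb (left) and within 1 kb of either gene end (right), in each of the 5 libraries; bars are the share, error bars the exact 95% binomial interval, and dashed lines the share of other protein-coding genes of like length. In the left panel the dashed line crosses the error bar in the 4 KDM6A libraries. In IgG it lies just below it (36.2% against a lower bound of 37.2%), a gap that closes under some settings and not under others.

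Near gene ends, within 1 kb of the first or last base, the counts were smaller. They were 10 genes in control library 1 (20.8%), 1 in control library 2 (2.08%), 11 in MTX library 1 (22.9%), 2 in MTX library 2 (4.17%) and 8 in IgG (16.7%). All protein-coding genes had one in 20.2%, 7.73%, 13.5%, 9.27% and 10.4%, in the same order, and genes of like length in 22.3%, 8.20%, 14.4%, 9.36% and 10.8%. The libraries numbered 1 held 10 and 11 such genes and those numbered 2 held 1 and 2, whichever the treatment.

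Counted over libraries, 12 genes had an interval in no KDM6A library, 12 in 1, 8 in 2, 6 in 3 and 10 in all 4. The 10 in all 4 were Enah, Lrp2, Itga6, Cecr2, Lrp6, Arhgap35, Apaf1, Nf1, Vcl and Ep300. They make up 20.8% of the neural tube genes, beside 13.2% of all genes and 21.6% of genes of like length. Every one of the 10 also had an IgG interval, a pattern found in 10.9% of all genes and 18.2% of genes of like length. No neural tube gene was found in both controls while absent from both MTX lists (2.18% of all genes), and none showed the reverse (1.26% of all genes). Without control library 2 the first count was 8, and without MTX library 2 or control library 1 the reverse count was 4 or 3. Over all genes these came to 14.8%, 5.95% and 5.63%, and over genes of like length to 13.6%, 4.87% and 6.89%. Leaving out the other libraries gave counts of 0 to 2. Without control library 1, 10 genes were in all remaining KDM6A lists (14.1% of all genes and 22.6% of genes of like length). Without intervals that overlap IgG, 7 were in all 4 (10.1% of all genes and 17.8% of genes of like length). A split by library number was seen in 5 genes, Rab23, Grhl3, Dvl2, Zic5 and Celsr1, which had intervals in control library 1 and MTX library 1 and in neither library 2 (5.53% of all genes and 5.94% of genes of like length). The opposite split held no neural tube gene (1.05% of all genes).

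The 10 genes found in all 4 KDM6A libraries spanned 65.9 to 242 kb, with a median of 113 kb. The 10 genes found in none of the 5 libraries, Vangl1, Scrib, Dvl1, Fzd3, Shh, Fuz, Cited2, Marcks, Alx1 and Twist1, had a median of 11.1 kb and make up 20.8% of the neural tube genes, beside 36.1% of all genes and 28.0% of genes of like length. Of the neural tube genes, 21 were at least as long as the shortest of the 10 in all 4 and 11 of these lacked an interval in 1 or more KDM6A libraries. Intu (173 kb), which builds the apparatus for cilium formation, and Fzd3 (70.0 kb), a polarity receptor, had none in any KDM6A library, and Dact1, at 10.2 kb, had them in 3.

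**Figure D2:**
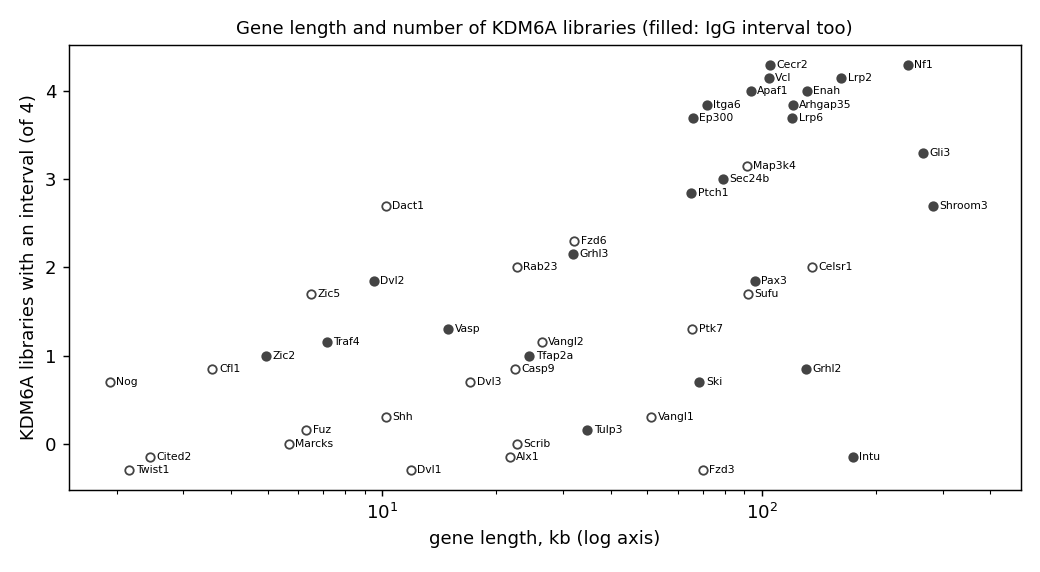
Gene length (kb, log axis) against the number of KDM6A libraries with an interval (0 to 4; points are spread slightly in height so that names can be read) for the 48 neural tube genes; filled points also had an IgG interval. All 10 genes in the top row are filled and at least 65.9 kb long, and the 10 open points of the bottom row are the genes with no interval in any of the 5 libraries.

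Of the 12 planar cell polarity genes, 7 had an interval in control library 1 and 1 in control library 2. The count was 5 in MTX library 1, 2 in MTX library 2 and 2 in IgG. None had one in all 4 KDM6A libraries. For genes of like length to each of these, the share in all 4 ran from 2.68% (Dvl2) to 44.2% (Celsr1). The role groups below differ in gene length. No like-length share was worked out per group, so differences between their counts are not read as differences between pathways. Vangl2, the core polarity protein that is mutated in the loop-tail mouse, had 1 interval near its start in control library 1 (90 immunoprecipitated and 98 background reads, deposited fold 1.21) and none in the other 4 libraries. Its relative Vangl1, the scaffold Scrib, the receptor Fzd3 and the cytoplasmic transducer Dvl1 had none at all. Sec24b, a coat protein that carries Vangl2 out of the endoplasmic reticulum, had 3 and 2 intervals in the control libraries, with folds of 1.26 to 3.04. It had 1 interval in MTX library 1 (fold 1.07) and none in MTX library 2. Celsr1, an adhesion receptor that links polarity between neighbouring cells, had folds of 1.18 and 3.02 in control library 1 and 1.88 in MTX library 1, none overlapping IgG. Fzd6 had a fold of 2.24 in control library 1 near an end of the gene and 1.91 in MTX library 2 beyond that end, at positions that did not overlap each other. Ptk7, a receptor-like regulator of the pathway, had its 3 intervals in MTX library 1 alone.

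Dact1, a Dishevelled-binding regulator of Wnt and polarity signalling, had the highest fold of any neural tube gene in MTX library 1. That interval, at chr12:71314801-71317200 inside the gene, held 92 immunoprecipitated and 42 background reads (fold 2.35). A second interval of the same library lay over the gene's start with 130 and 89 reads (fold 1.57). Control library 1 and MTX library 2 had 1 interval each upstream of the gene, with folds of 1.18 and 1.04, and control library 2 and IgG had none. All 3 intervals of Dact1 that lay over a neighbour lay over 2700049A03Rik.

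Of the 8 Hedgehog and cilia genes, 4 and 1 had an interval in the controls, 2 and 3 after MTX and 4 with IgG. The ligand gene Shh and the cilium gene Fuz had none. Tulp3, which carries receptors into the cilium, and Intu had intervals in IgG alone. Gli3, the transcription factor that represses Hedgehog targets when the signal is absent, had the highest fold in control library 2 (145 and 57 reads, fold 2.65, chr13:15579201-15583400), and this interval overlapped an IgG interval of fold 2.08. Its folds elsewhere were 1.50, 1.52 and 2.57 in control library 1 and 1.92 in MTX library 2, with none in MTX library 1. Ptch1, the Hedgehog receptor, had the highest fold in MTX library 2 (92 and 43 reads, fold 2.40, chr13:63534001-63536600), with no interval of another library there. At its far end Ptch1 had intervals in control library 1 (84 and 104 reads, fold 1.07) and in MTX library 1 (167 and 182 reads, fold 0.984). Control library 2 had none at Ptch1, so the gene was absent from 1 library of the control group. Sufu, which holds Gli proteins in check, had folds of 1.19 in control library 1, past its far end, and 1.04 in MTX library 2. Rab23, a regulator of the same pathway, had 1.98 in control library 1, inside the gene. In MTX library 1 Rab23 had 1.16, past its far end and over Bag2.

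Of the 8 actin and adhesion genes, 6 and 5 had an interval in the controls, 6 and 4 after MTX and 6 with IgG, and 4 were among the 10 genes found in all 4. The group's median span was 87.9 kb, against 29.2 kb for the polarity genes. For genes of like length to each of these, the share in all 4 ran from 1.48% (Cfl1) to 58.5% (Shroom3). Shroom3, which drives apical constriction of neural plate cells and is the longest of the 48 genes (282 kb), had 5 intervals in each of control library 1, control library 2 and MTX library 1 and none in MTX library 2. Its folds ran from 0.955 to 1.66, and IgG had 1 interval, of fold 0.902. Marcks, an actin cross-linking protein, had none, and Cfl1, which severs filaments, had 1 over its start in MTX library 1 (fold 1.33).

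Enah, an actin-filament elongation factor (chr1:181896384-182027556), had 12 intervals in control library 1, 2 in control library 2, 8 in MTX library 1, 4 in MTX library 2 and 8 in IgG. Summed over intervals, its ratio of immunoprecipitated to background reads, scaled for depth, was 1.08 and 1.21 in the controls, 1.14 and 1.45 in MTX and 1.26 in IgG. The groups overlapped and IgG lay within them. The highest fold of any interval at a neural tube gene in IgG was also at Enah (105 and 37 reads, fold 2.94, chr1:181926401-181928400), where control library 1, MTX library 1 and MTX library 2 had intervals with folds of 1.37, 0.968 and 1.62. At its start, Enah had intervals in control library 1 (fold 1.10) and MTX library 1 (fold 0.962), both overlapping an IgG interval of fold 0.936.

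Vcl encodes vinculin, which ties adhesions to actin (chr14:20929383-21033676). It had 6, 7, 4 and 3 intervals in the order above and 1 in IgG, with summed ratios of 1.264 and 1.247 in the controls, 1.31 and 1.42 in MTX and 0.944 in IgG. All 4 KDM6A values lay above IgG, and both MTX values above both control values. The highest of its folds, 2.37 in MTX library 2 (93 and 44 reads, chr14:21028401-21031000), overlapped an interval of fold 1.27 in control library 2.

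Arhgap35 encodes a GTPase-activating protein that regulates the actin cytoskeleton (chr7:16494473-16614993). It had 6, 2, 4 and 1 intervals and 2 in IgG, with summed ratios of 1.45 and 1.49 in the controls, 1.65 and 2.11 in MTX and 1.12 in IgG. The MTX library 2 value rested on 1 interval of 79 and 42 reads. The highest fold of all 351 KDM6A intervals at the neural tube genes was at Arhgap35 in control library 1 (44 and 14 reads, fold 4.16, chr7:16598401-16599400), inside the gene, and it overlapped an IgG interval of fold 1.05. Itga6, an integrin chain of the basement membrane (chr2:71786886-71858427), had 4, 2, 4 and 1 intervals and 2 in IgG, with ratios of 1.19, 1.33, 1.30, 1.29 and 1.17. Its intervals near an end of the gene, of folds 1.29 in MTX library 1 and 1.29 in MTX library 2, both overlapped an IgG interval of fold 1.254.

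Among the 9 transcription factors, 6 and 0 had an interval in the controls, 3 and 1 after MTX and 6 with IgG. None was in all 4, where genes of like length to each ran from 1.33% (Twist1) to 43.8% (Grhl2). Twist1 and Alx1, factors of the head mesenchyme, had none. Pax3, which is mutated in the splotch mouse, had an interval in control library 1 (125 and 125 reads, fold 1.32) and in MTX library 2 (130 and 108 reads, fold 1.35). These overlapped each other and lay clear of the Pax3 intervals of IgG. Grhl3, a factor of the surface ectoderm that is low in the curly tail mouse, had folds of 0.918 in control library 1, 1.02 to 1.66 in MTX library 1 and 1.62 in IgG. Its relative Grhl2 had 1.73 in control library 1 and 2.00 in IgG. Tfap2a, a neural crest factor, had folds of 1.55 and 1.28 in control library 1 and 2.16 in IgG, at other positions of the gene. Zic2, a factor of the dorsal neural fold, had 1.39 in MTX library 1, over an IgG interval of fold 1.31 and over Pcca. Its neighbour Zic5 had 0.873 in control library 1 and 1.66 in MTX library 1.

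Of the 3 coactivator and chromatin genes, Ep300 and Cecr2 had intervals in all 5 libraries and Cited2, which binds the p300 protein, in none. Ep300 encodes p300, a histone acetyltransferase of enhancers (chr15:81586209-81652077). It had 6, 3, 4 and 4 intervals and 2 in IgG, with summed ratios of 1.26 and 1.00 in the controls, 1.31 and 1.32 in MTX and 1.22 in IgG. Both MTX values lay above both control values, and IgG lay among them. Ep300 was the only one of the 10 genes other than Nf1 where intervals of all 4 KDM6A libraries covered the same bases. How often other protein-coding genes hold such a stretch was not worked out, so its rarity is not known. The stretch at Ep300, of 1800 bp at chr15:81637201-81639000, lies 51.0 to 52.8 kb downstream of the start, inside the gene. No IgG interval touched it. The intervals over it held 143 and 136 reads in control library 1 (fold 1.39) and 180 and 163 in control library 2 (fold 1.15). In MTX library 1 they held 229 and 149 reads (fold 1.65) and in MTX library 2 137 and 105 (fold 1.46). The folds of both MTX libraries lay above those of both controls, with 1.46 against 1.39 at the closest. That order was not tested. At the start and far end of Ep300 there were intervals of fold 0.853 and 1.02 in control library 1, and at the far end one of 0.959 in MTX library 1. Cecr2, a subunit of a chromatin remodeller (chr6:120666314-120771191), had 4, 3, 3 and 3 intervals and 4 in IgG, and its IgG ratio of 1.20 exceeded the KDM6A ratios of 1.17, 1.05, 1.04 and 1.16.

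**Figure D3:**
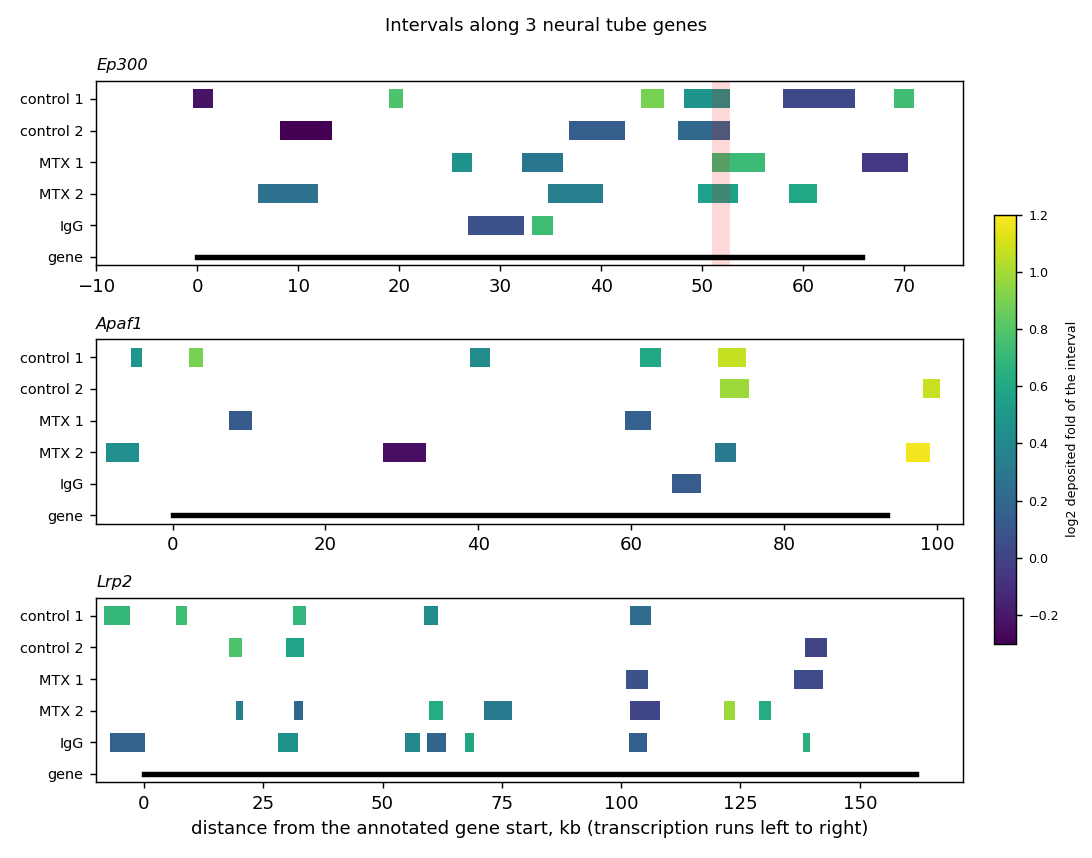
Intervals along Ep300, Apaf1 and Lrp2 by library, as distance from the annotated gene start (kb, transcription left to right); black lines are the gene spans, colours the log2 of the deposited fold, and the shaded band the 1800 bp that the intervals of all 4 KDM6A libraries share at Ep300. The band at 51.0 to 52.8 kb is free of IgG, and Apaf1 and Lrp2 have no base in all 4 KDM6A lists. How often other genes hold such a band was not worked out.

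In the cell death and signalling group of 5, 4 and 2 genes had an interval in the controls, 4 and 3 after MTX and 3 with IgG. Apaf1 encodes the scaffold on which caspase-9 is activated (chr10:90989311-91082743). It had 5, 2, 2 and 4 intervals and 1 in IgG, with summed ratios of 1.63 and 2.03 in the controls, 1.10 and 1.23 in MTX and 1.10 in IgG. Both control values lay above both MTX values, and IgG lay below all 4 KDM6A values. Inside the gene, intervals of 3 libraries overlapped, with folds of 2.10 in control library 1 (111 and 70 reads), 1.97 in control library 2 (125 and 66 reads) and 1.24 in MTX library 2 (113 and 102 reads). MTX library 1 had none there. Past the far end, control library 2 and MTX library 2 had intervals that reached into the 5 kb flank, of folds 2.11 and 2.26. Control library 1 and MTX library 1 had none there. In the flank before the start, control library 1 had a fold of 1.39 and MTX library 2 one of 1.36. With 1 library per group at each place, whether the difference reached beyond the gene cannot be told. Casp9, the caspase that Apaf1 activates, had 2 intervals in MTX library 1 alone. That of fold 1.61 lay upstream of the gene and that of fold 1.36 over its start, and 1 of the 2 also lay over Dnajc16. Map3k4, a stress kinase, had 3, 0, 1 and 1 intervals with folds of 1.21 to 1.67, and Traf4 had 3 in control library 1 (1.07 to 1.69) and 2 in IgG.

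Nf1, which encodes neurofibromin, a brake on Ras (chr11:79339590-79581609), held 118 of the 351 KDM6A intervals (33.6%). It had 31 and 27 intervals in the controls, 29 and 31 in MTX and 21 in IgG, which covered 45.9%, 59.2%, 50%, 69.3% and 48.5% of its span with 5 kb on each side. The summed ratio was 1.24 and 1.14 in the controls, 1.22 and 1.18 in MTX and 1.17 in IgG, and the IgG value lay within the range of the KDM6A libraries. In 21 stretches, 37400 bp or 14.8% of the window, intervals of all 4 KDM6A libraries covered the same bases, and 69.5% of these bases were also in an IgG interval. High numbers of intervals were shared by genes of its chromosome: 24 other genes of like length on chromosome 11 had a median of 15 and 14 intervals in the controls, 10.5 and 16.5 in MTX and 10.5 in IgG, against 4, 1, 2, 2 and 1 for 452 such genes on other chromosomes. Of these genes, Ehbp1 and Ranbp17, both on chromosome 11, had at least as many intervals as Nf1's smallest count in every KDM6A library. Of Nf1's intervals, 18 also lay over Evi2, Evi2a, Evi2b, Omg or Rab11fip4. Intervals at the ends of Nf1 came from 3 libraries. Folds were 1.07 in control library 2 and 1.19 in MTX library 1 at the start, and 1.23 in MTX library 2 at the far end. The intervals at the start overlapped IgG only more than 5 kb upstream of the gene, and IgG had none within 1 kb of either end.

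Of the coreceptors and antagonists, Lrp2, an endocytic receptor of the neural fold that binds Shh (chr2:69424335-69586029), had 5, 3, 2 and 7 intervals and 7 in IgG. Its summed ratios were 1.45 and 1.28 in the controls, 1.04 and 1.27 in MTX and 1.24 in IgG. The lower control value and the higher MTX value differed in the third digit, so the groups separated by very little. Lrp6, a Wnt coreceptor (chr6:134446476-134566913), had 11, 4, 5 and 4 intervals and 4 in IgG, with ratios of 1.30, 1.09, 1.28, 1.34 and 1.253. Nog, the secreted BMP antagonist and the shortest of the 48 genes (1.92 kb), had 1 interval near an end in control library 1 (80 and 86 reads, fold 1.23).

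**Figure D4:**
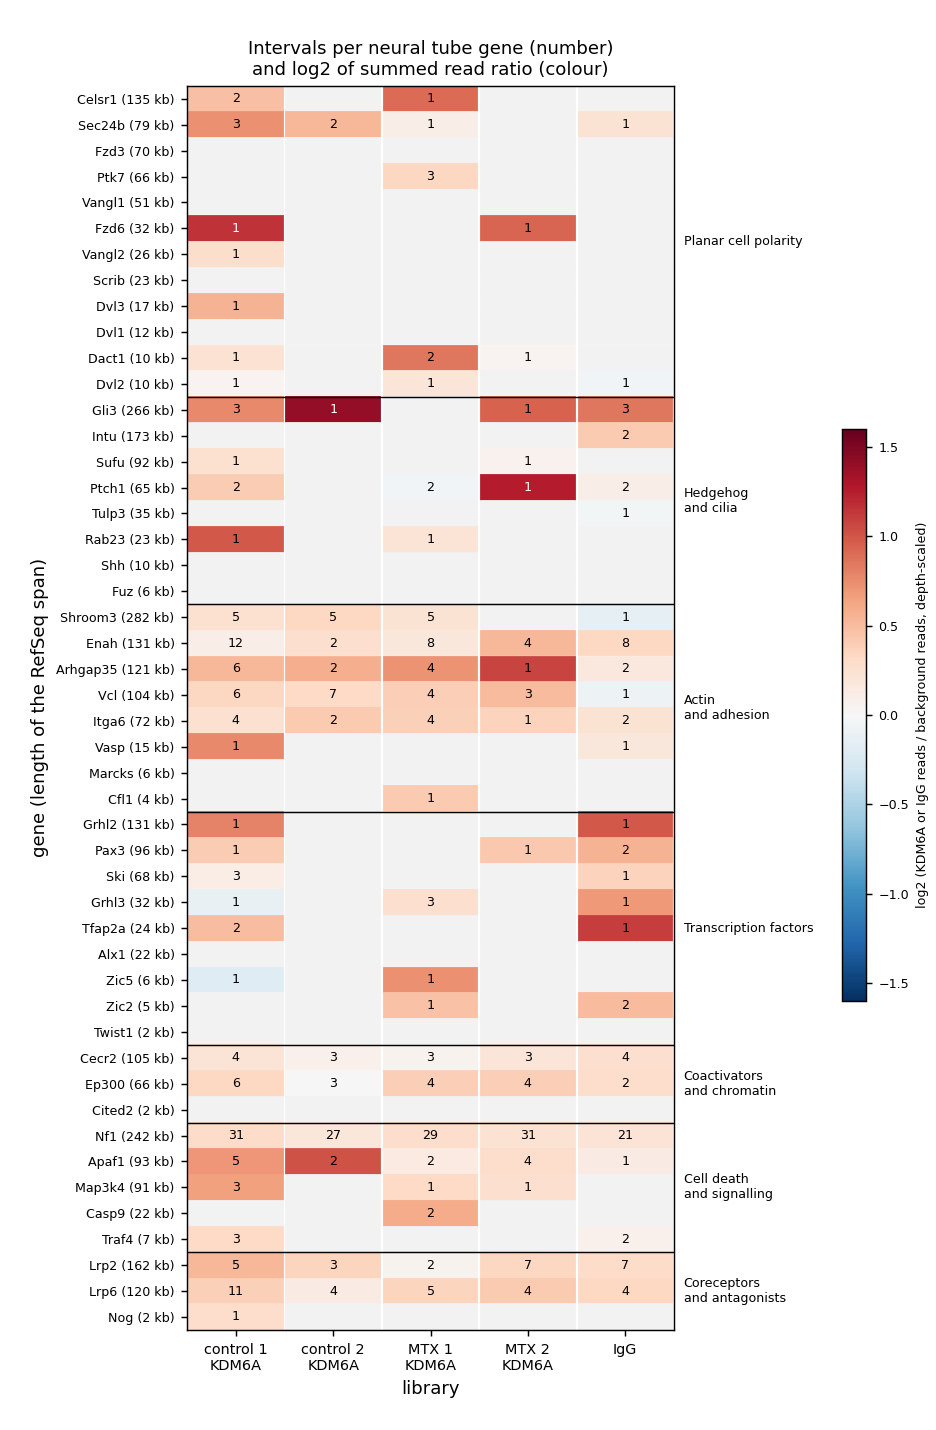
Number of intervals (figures in the cells) and log2 of the summed, depth-scaled ratio of immunoprecipitated to background reads (colour) for each of the 48 neural tube genes, in 4 KDM6A libraries and IgG; grey cells have no interval, and genes are ordered by role and then length. The row of Nf1 holds 21 to 31 intervals in every column at pale colours, and most of the short genes have none or 1.

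Most intervals at the neural tube genes lay inside the gene: of 351 KDM6A intervals, 301 were in the body, 28 within 1 kb of an end and 22 in the flanks. Outside Nf1 these were 187, 25 and 21 of 233. The body takes up most of the window of a long gene. Positions at other genes were not worked out, so this is not read as a trait of these genes. IgG intervals overlapped 142 of the 351 (40.5%), or 22.7% of the 233 outside Nf1 (20.4% to 28.9% by library). The matching share at other protein-coding genes was 20% to 27.1% by KDM6A library. The 22.7% outside Nf1 lay within that range, and the higher share of all 351 came from Nf1. The median fold at the neural tube genes was 1.31 and 1.18 in the controls, 1.26 and 1.27 in MTX and 1.21 in IgG. At other protein-coding genes it was 1.52, 1.35, 1.37, 1.42 and 1.40 in the same order, so the neural tube genes were lower in each of the 5 libraries, IgG included. Of the 351, 234 had a deposited adjusted p under 0.05 (66.7%, and 60.3% to 78.3% by library, beside 74.7% to 81.0% at other genes). A fold of 1 or less was found in 32 (9.12%, and 7.75% to 12.2% by library, beside 5.18% to 8.39%). That share was above other genes in control library 1 and both MTX libraries, and below them in control library 2 (7.94% against 8.35%). Outside Nf1 it was below in MTX library 2 too (2.63% against 6.88%), and above in control library 1 and MTX library 1. A further limit is that 32 of the 351, at 11 genes, also lay over another protein-coding gene.

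Promoters from 250 bases before to 50 after a start were listed in RefSeq (GRCm38.p6, the assembly of mm10) for 33 of the 48 genes, 36 promoters in all. Intervals touched 5 of them in control library 1, 0 in control library 2, 5 in MTX library 1, 0 in MTX library 2 and 4 in IgG. Over all protein-coding promoters the shares were 9.99%, 2.39%, 7.26%, 2.95% and 5.08%. At least 1 KDM6A library touched 10 of the 36, beside 18.3% of all promoters, and none of the 36 was touched by 2 or more, beside 3.49%. No promoter was therefore repeated between libraries, which is why the sequences below are shown as single-library cases, chosen after their values were seen: the highest fold of an interval over a start, the next highest, and the lowest. Capitals mark CG dinucleotides, searched as CG on both strands, which 95.4% of protein-coding promoters hold at least once. The sequences read 5′ to 3′ along the gene.

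Vasp promoter: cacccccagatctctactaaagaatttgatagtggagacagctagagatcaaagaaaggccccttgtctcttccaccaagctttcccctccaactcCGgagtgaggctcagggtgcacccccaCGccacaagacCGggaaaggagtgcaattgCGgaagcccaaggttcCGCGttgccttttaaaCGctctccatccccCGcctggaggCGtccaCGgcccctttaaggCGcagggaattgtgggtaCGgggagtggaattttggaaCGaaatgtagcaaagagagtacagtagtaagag
Dact1 promoter: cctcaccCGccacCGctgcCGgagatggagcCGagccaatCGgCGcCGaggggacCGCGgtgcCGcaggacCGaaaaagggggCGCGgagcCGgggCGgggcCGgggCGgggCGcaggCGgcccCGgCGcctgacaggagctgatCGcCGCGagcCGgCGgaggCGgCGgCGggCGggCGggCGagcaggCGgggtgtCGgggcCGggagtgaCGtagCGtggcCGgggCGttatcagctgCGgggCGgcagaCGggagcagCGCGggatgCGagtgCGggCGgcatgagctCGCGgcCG
Ep300 promoter: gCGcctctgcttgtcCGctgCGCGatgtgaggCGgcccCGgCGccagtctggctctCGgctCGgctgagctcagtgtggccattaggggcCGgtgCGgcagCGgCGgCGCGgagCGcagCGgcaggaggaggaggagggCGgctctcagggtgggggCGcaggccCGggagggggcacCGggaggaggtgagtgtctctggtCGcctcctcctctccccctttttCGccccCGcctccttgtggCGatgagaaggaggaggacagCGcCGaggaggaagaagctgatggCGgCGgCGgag

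The Vasp promoter (chr7:19271805-19272104, minus strand) belongs to a gene for an actin-filament elongation factor related to Enah. It lay in an interval of control library 1 (85 and 66 reads, fold 1.70) and in one of IgG (fold 1.14), and held 13 CG with 54.3% G and C. The Dact1 promoter (chr12:71309634-71309933, plus strand) lay in the MTX library 1 interval of fold 1.57 given above, with no IgG, and held 50 CG with 79.7% G and C. The Ep300 promoter (chr15:81585964-81586263, plus strand) lay in an interval of control library 1 with fewer scaled reads than background (69 and 107 reads, fold 0.853), and held 30 CG with 72.3% G and C. The highest and lowest of these folds thus came from the same library. Over all 36 promoters the median was 27.5 CG, against 13 over protein-coding promoters.

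To compare MTX with control, reads were summed per gene over its intervals in each library and tested with edgeR's quasi-likelihood test (two-sided, background reads as offset) over the 2888 genes with an interval in all 4 KDM6A libraries, 10 of them neural tube genes. No gene passed an adjusted p of 0.05 (Benjamini-Hochberg over 2888 genes): 0 were higher in MTX (0% of genes tested) and 0 lower (0%), and the smallest adjusted p was 0.918. At an unadjusted p under 0.05, 26 genes were higher (0.9%) and 90 lower (3.12%), and DESeq2 and limma also called 0. Without control library 2 edgeR called 11 genes lower and without MTX library 2 it called 3 higher and 2 lower, none of them a neural tube gene. The median difference, MTX minus control on the log2 scale, was 0.08 over the 10 neural tube genes and -0.03 over all genes tested. It was above 0 in 7 of the 10, beside 1231 of all 2888 genes tested. The 7 included Nf1 at 0.02 and Itga6 at 0.04.

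The log2 ratio of Apaf1 was 0.71 and 1.02 in the controls against 0.14 and 0.30 in MTX. Its fitted difference was -0.64 ± 0.21 (SE, n = 2 per group), with both MTX libraries below both controls. With TMM scaling and no background offset it was 0.14, in the other direction. That setting is another measure: it compares immunoprecipitated reads summed over each library's own intervals, not their ratio to background. It therefore also changes with the number and width of the intervals called. The adjusted p from edgeR (Benjamini-Hochberg) was 0.961, with a range of 0.325 to 1.00 over the alternatives run, and 0.00387 before adjustment, so Apaf1 did not pass. Arhgap35 differed by 0.32 ± 0.22, Ep300 by 0.22 ± 0.17, Enah by 0.18 ± 0.15, Lrp6 by 0.12 ± 0.15 and Vcl by 0.12 ± 0.16 (log2, SE). Lrp2 differed by -0.23 ± 0.18, Itga6 by 0.04 ± 0.22, Nf1 by 0.02 ± 0.09 and Cecr2 by -0.01 ± 0.18. For these genes edgeR's unadjusted p was 0.153 or higher. Several of these values rested on 1 library: without MTX library 2, Enah was at 0.00285, Arhgap35 at 0.168 and Vcl at 0.0670. Without control library 2, Ep300 was at 0.0605 and Lrp6 at 0.00786, and without MTX library 1, Lrp2 was at -0.0993. Nf1, with the most reads, had the smallest error.

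In 5 of the 10 genes the 2 groups did not overlap: Arhgap35, Vcl and Ep300 were higher in MTX (10.7% of all genes tested did so) and Lrp2 and Apaf1 lower (20.8%). Only Ep300 of these 5 had the same sign with TMM scaling and no background offset, which compares summed reads and not their ratio to background. The other 5 overlapped. The IgG value lay within the range of the 4 KDM6A libraries in 5 of the 10 genes, below all 4 in Itga6, Arhgap35, Apaf1 and Vcl, and above all 4 in Cecr2. For Itga6 and Apaf1 the distance was small, with log2 ratios of 0.23 in IgG against 0.25 in the lowest KDM6A library, and 0.13 against 0.14. The IgG values of Vcl (131 and 144 reads) and Apaf1 (129 and 122 reads) rested on 1 interval each. The place of IgG was not worked out over the other genes tested, so these counts are not read as a trait of the 10.

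**Figure D5:**
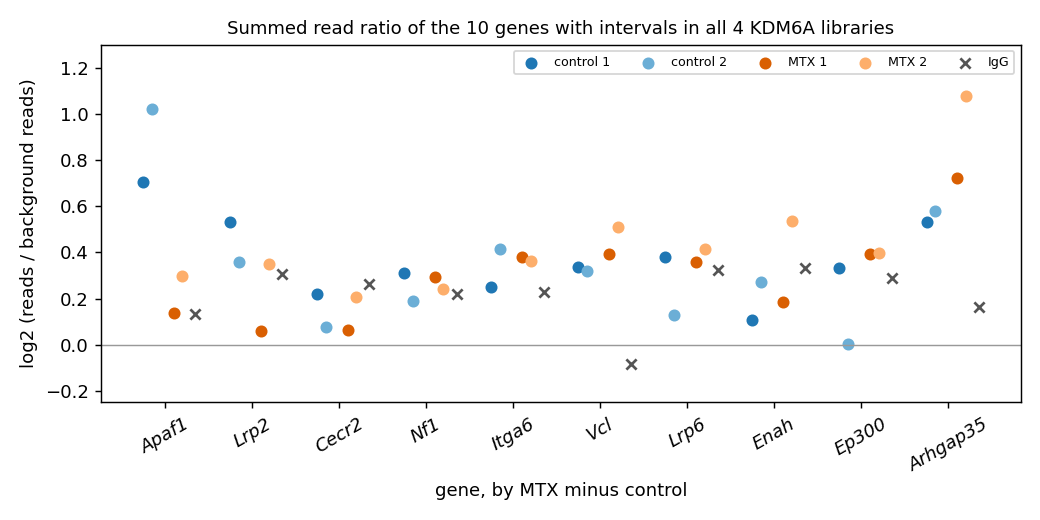
Log2 of the summed, depth-scaled ratio of immunoprecipitated to background reads for the 10 neural tube genes with intervals in all 4 KDM6A libraries, ordered from the lowest to the highest fitted MTX minus control difference; circles are KDM6A libraries and crosses IgG. The Apaf1 controls (0.71 and 1.02) lie above its MTX libraries (0.14 and 0.30). With TMM scaling and no background offset, which compares summed reads and not their ratio, the direction is the other one. At Arhgap35 and Vcl the cross lies clear below all 4 circles, and the cross of Vcl rests on 1 interval of 131 and 144 reads.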

How the data were processed

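KDM6A ChIP-seq of 4 libraries and 1 IgG library was analysed from the interval lists the authors deposited, called per library. The submitters' processing notes name Bowtie2 and the build mm10. For the interval caller, the sources used here give no name. Each deposited list gives whole-number read counts per interval for the immunoprecipitation and a background sample, not normalized. Their ratio, times a constant of 1.04 to 1.32 per list, makes up the fold the authors deposited, and the deposited p-value and adjusted p-value belong to the interval. These per-interval values are the authors' own and were used to describe intervals within a list.

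Gene spans came from RefSeq (GRCm38.p6), and coordinates count from 1. Overlap of 1 bp or more with the span plus 5 kb was counted, and gene ends are the 1 kb on either side of a gene's first or last base; the annotation gave no exons, introns or untranslated regions. Intervals of shares are exact 95% binomial ones (Clopper-Pearson) and hold counting error alone. Counts were summed per gene and tested in R 4.3.3 by edgeR 4.0.16, checked on simulated counts, with the log of the background count times the list's constant as offset. Alternatives used DESeq2 1.42.0, limma 3.58.1, other windows, filters and list lengths, and fewer libraries. The intervals of a gene differ between libraries, so a summed ratio compares different bases of it.

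Named in full are genes with intervals in all 4 KDM6A libraries, in both libraries of 1 group only, or at a gene end in 2 or more KDM6A libraries, and the highest fold per library; other genes are given as examples of their role group, chosen after their values were seen. The rule for promoters asked for a start covered in 2 or more KDM6A libraries, which none met. The genes and lists were chosen with earlier results of these data known. Whether a group's libraries were grown as separate cultures is not labelled, so p-values measure only the spread between these libraries, which may be technical.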

Additional observations from a re-analysis of the deposited data

How the results depend on the processing

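With windows of 1 kb around gene ends, the share of neural tube genes with an interval was 20.8% and 2.08% in the controls, 22.9% and 4.17% in MTX and 16.7% in IgG, and with lists of equal length control library 1 fell to 33.3%, now under genes of like length (35.8%), and the genes in all 4 KDM6A libraries to 5 (14.3% of genes of like length). Leaving out 1 library at a time, genes found in every remaining control list and no MTX list numbered 0 to 8, and the reverse 0 to 4; the highest counts came without control library 2 and without MTX library 2. Only Sec24b became control-only (1 gene, beside 2.29% of all genes) when intervals needed an adjusted p under 0.05 and a fold above 1. edgeR called 0 to 3 genes higher and 0 to 11 lower (without MTX library 2 and control library 2), and a replicate block gave 0 higher and 3 lower; no neural tube gene was called under any setting (smallest adjusted p 0.325). No label says that library numbers pair the samples, and deviations of same-numbered libraries correlated at 0.03 over 2888 genes, though genes with a gene-end interval went with the number (10 and 11 against 1 and 2). The median fold of the 10 genes, from the interval of lowest p, was 1.90 and 1.40 in the controls, 1.56 and 1.79 in MTX and 1.59 in IgG, and summed over intervals 1.26, 1.23, 1.254, 1.302 and 1.19. With TMM scaling and no background offset, reads summed over intervals are compared and not their ratio to background. The direction was then the other one in Cecr2 (0.49), Lrp2 (0.26), Lrp6 (-0.24), Apaf1 (0.14), Vcl (-0.64), Arhgap35 (-0.67) and Itga6 (-0.44). Leaving out 1 library at a time gave -0.0859 to 0.0611 for Cecr2 (above 0 without control library 1 or MTX library 1), -0.0423 to 0.0761 for Nf1 (below 0 without control library 2 or MTX library 1) and -0.0410 to 0.124 for Itga6 (below 0 without control library 1). The cause was not tested. Where 1 library of a group is left, it is assumed to vary like the other group. The alternatives autosomes only and without Nf1 were chosen after seeing the data. Depth limits all of this: intervals held a median of 79 to 130 reads.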

Other observations

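A further 50 genes of neural tube development and folate handling, listed beside the 48 and with no gene in common, gave a like picture in the KDM6A libraries. An interval was present at 35 and 17 of them in the controls, 24 and 21 after MTX and 21 with IgG. The shares were 70%, 34%, 48%, 42% and 42%, beside 62.4%, 39.2%, 47.2%, 45.4% and 39.9% of genes of like length. In all 4 KDM6A libraries there were 11, beside 13.2% of all genes of any length. None was control-only (2.18% of all genes) or MTX-only (1.26%). Of the 11, edgeR called 0 at an adjusted p of 0.05 (Benjamini-Hochberg), with 0 at an unadjusted p under 0.05. Cobl, an actin nucleator on chromosome 11 like Nf1, held 35, 27, 34 and 23 intervals and 23 in IgG. Efna5, an ephrin of the neural folds, had its highest fold in IgG (4.48), against 2.43 and 1.19 in the controls and 2.11 and 2.36 in MTX. The folate transporter gene Slc19a1 had 1 interval (control library 1, fold 1.39), and Folr1, a folate receptor, had 1 in control library 1 (fold 1.58) and 1 in IgG (fold 1.32). Mthfd1l, a mitochondrial folate enzyme, had none in control library 1 and 2 in each other KDM6A library, with highest folds of 1.83, 1.72 and 1.18, and 1 in IgG (fold 1.32). Axin1, a scaffold of the Wnt pathway, had 4, 1, 2 and 2 intervals in the KDM6A libraries and none in IgG.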
